A study of Mus musculus with 23 samples.

Results

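The 6 mouse genes whose names carry C/EBP, for CCAAT/enhancer binding protein, were *Cebpa*, *Cebpb*, *Cebpd*, *Cebpe*, *Cebpg* and *Cebpz*. The rule that picks them is their name and uses no measured value, although the family was proposed with earlier results of these data known. They were matched by gene identifier to 6 of 21878 genes listed for sorted neutrophils and by symbol to 6 of 55335 genes listed for whole lung. Bulk RNA-Seq of polyadenylated RNA from C57BL/6J mice gave 23 libraries in 3 experiments. In the tissue experiment neutrophils were sorted from perfused lung, peripheral blood (PB) and bone marrow (BM) of WT mice, with 3 libraries a tissue. In the *Piezo1* experiment the donors were WT or *Piezo1*-cKO mice and the tissues lung or PB, with 2 libraries a group. In the depletion experiment whole lungs came from mice given the anti-Ly6G antibody 1A8 and from isotype-treated controls, with 3 libraries a group.

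*Piezo1*-cKO mice are homozygous for a floxed *Piezo1* allele and carry Vav1-iCre, which is active in all hematopoietic cells rather than in neutrophils alone. The labels give only WT for the controls, so whether these carried a floxed allele or Cre is not stated for the sequenced samples. Neutrophils were sorted by FACS as CD45+CD11b+Ly6G+ cells, after negative selection for lung and PB, and lung tissue had to be dissociated first, so tissue of origin and handling cannot be told apart. The labels do not say that libraries of a group came from separate mice. For the tissue experiment the study's figure legend counts the replicates as mice, and for the other sequenced groups it gives no such number. The p-values therefore measure the spread between these libraries, which may be technical where separate mice are not stated.

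C/EBP proteins are basic leucine zipper transcription factors that bind DNA as homodimers or heterodimers. In granulopoiesis C/EBPα commits progenitors to the granulocyte lineage, C/EBPε drives late maturation and the genes of secondary and tertiary granules, and C/EBPβ takes over when demand for neutrophils is high. C/EBPβ and C/EBPδ also drive acute phase and cytokine genes, C/EBPγ lacks an activation domain and pairs with other zipper proteins, and CEBPZ shares the name but has no leucine zipper and is a nucleolar ribosome assembly factor.

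Sorted libraries held 9621120 to 19330774 reads in genes, so 3 reads, the most that a count of 0 allows, equal 0.155 to 0.312 RPM (reads scaled to library size). Such limits cover counting error only. The depth of the whole lung libraries is unknown. *Ly6g*, the gene of the sorting antigen, ran from 50.6 to 116 FPKM (fragments per kilobase, scaled to library size) in sorted lung and PB libraries. In BM it ran from 760 to 781 FPKM. In the tissue experiment the 6 epithelial markers summed to 5.38 to 6.38 FPKM in lung, 13.9 to 24.1 in PB and 16.2 to 17.5 in BM. Of these 6, 4 were at 0 in every PB library and 1 reached 1 FPKM there. In the *Piezo1* experiment the list summed to at most 6.74 FPKM. *Piezo1* itself was near 0 in all 8 libraries of its experiment, between 0.0301 and 0.0758 FPKM, so its level does not check the genotype labels. In the depletion experiment *Ly6g* was below 1 FPKM in every whole lung library, and 6 neutrophil markers summed to 195 to 252 FPKM in controls and 37.0 to 115 FPKM after depletion.

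In GRCm38 coordinates, *Cebpa* (chr7:35119293-35121928, plus strand), *Cebpb* (chr2:167688915-167690418, plus strand) and *Cebpd* (chr16:15887286-15891031, plus strand) each have 1 exon. *Cebpe* (chr14:54710360-54712174, minus strand) and *Cebpg* (chr7:35046422-35056573, minus strand) have 2 exons, and *Cebpz* (chr17:78919006-78937066, minus strand) has 16 in its longest coding transcript. *Cebpg* and *Cebpa* are neighbours on chromosome 7, 62720 bases apart and transcribed away from each other. Every member except *Cebpe* overlaps an annotated gene on the opposite strand, and the sources used here do not state that counting used strand, so reads of such pairs cannot be told apart. For *Cebpb* the partner is *Tmem189*, at 145 FPKM in lung, 58.4 in PB and 48.7 in BM neutrophils.

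RefSeq promoter sequences on GRCm38.p6 were held for 3 of the 6 genes, and the 250 bases before each start are shown because *Cebpa* and *Cebpg*, the chromosome 7 pair, were lower in lung neutrophils while *Cebpb* was higher. Capitals mark the TATA box letters TATAAA in *Cebpa* (chr7:35119043-35119292, plus strand), cAMP response element core letters TGACG or their complement in *Cebpb* (chr2:167688665-167688914, plus strand) and CCAAT box letters in *Cebpg* (chr7:35056567-35056816, minus strand), where they read as the complement ATTGG.
Cebpa: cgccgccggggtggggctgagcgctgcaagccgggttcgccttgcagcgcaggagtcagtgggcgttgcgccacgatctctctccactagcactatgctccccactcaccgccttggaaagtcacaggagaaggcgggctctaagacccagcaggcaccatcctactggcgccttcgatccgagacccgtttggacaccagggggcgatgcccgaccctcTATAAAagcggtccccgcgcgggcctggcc
Cebpb: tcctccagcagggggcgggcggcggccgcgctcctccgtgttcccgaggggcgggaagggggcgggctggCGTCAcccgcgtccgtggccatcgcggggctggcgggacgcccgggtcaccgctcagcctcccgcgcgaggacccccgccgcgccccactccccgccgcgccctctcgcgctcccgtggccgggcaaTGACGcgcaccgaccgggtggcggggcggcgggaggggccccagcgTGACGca
Cebpg: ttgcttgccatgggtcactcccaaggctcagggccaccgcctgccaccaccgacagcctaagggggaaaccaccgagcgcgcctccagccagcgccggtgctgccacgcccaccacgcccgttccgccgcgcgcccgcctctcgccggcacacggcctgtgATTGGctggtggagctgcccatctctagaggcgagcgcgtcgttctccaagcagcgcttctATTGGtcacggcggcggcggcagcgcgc

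Both strands were searched. TATAAA begins at position −30 in *Cebpa*, counted from the RefSeq start, and 12.4% of 32851 promoters hold it. TGACG occurs at −180, −53 and −7 in *Cebpb*, against 17.8% of promoters with any match, and CCAAT at −89 and −28 in *Cebpg*, against 33.8%. *Cebpb* also has 5 matches to the GC box GGGCGG, which 32.7% of promoters hold. The C/EBP motif TTGCNNAA is in none of these 3 windows and in 9.56% of all. The windows were 66.4% (*Cebpa*), 81.6% (*Cebpb*) and 70.8% (*Cebpg*) G or C, against a median of 52.4% over all promoters.

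The first question was how C/EBP levels differ between neutrophils of lung, PB and BM. Relative to PB, *Cebpb* and *Cebpz* rose in lung neutrophils and *Cebpa*, *Cebpd*, *Cebpe* and *Cebpg* fell, so all 6 were called at an adjusted p below 0.05 and a log2 difference beyond 1 (limma on log2(FPKM + 1), Benjamini-Hochberg over all genes). The background was high, with 27.2% of 7577 tested genes called, 7.75% higher and 19.5% lower. The same 6 directions held against BM, where 45.9% of 8236 genes were called, 9.86% higher and 36.0% lower. The median gene itself differed by −0.54 between lung and PB and by −0.70 between lung and BM on the log2 scale, so differences are also given relative to it. After each library was divided by its median ratio to a shared reference library, the members' directions were the same, but the background turned to 12.3% higher and 5.94% lower between lung and PB and to 19.3% higher and 14.1% lower between lung and BM. In such bulk samples fewer cells of a type and less RNA per cell cannot be told apart.

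**Figure D1:**
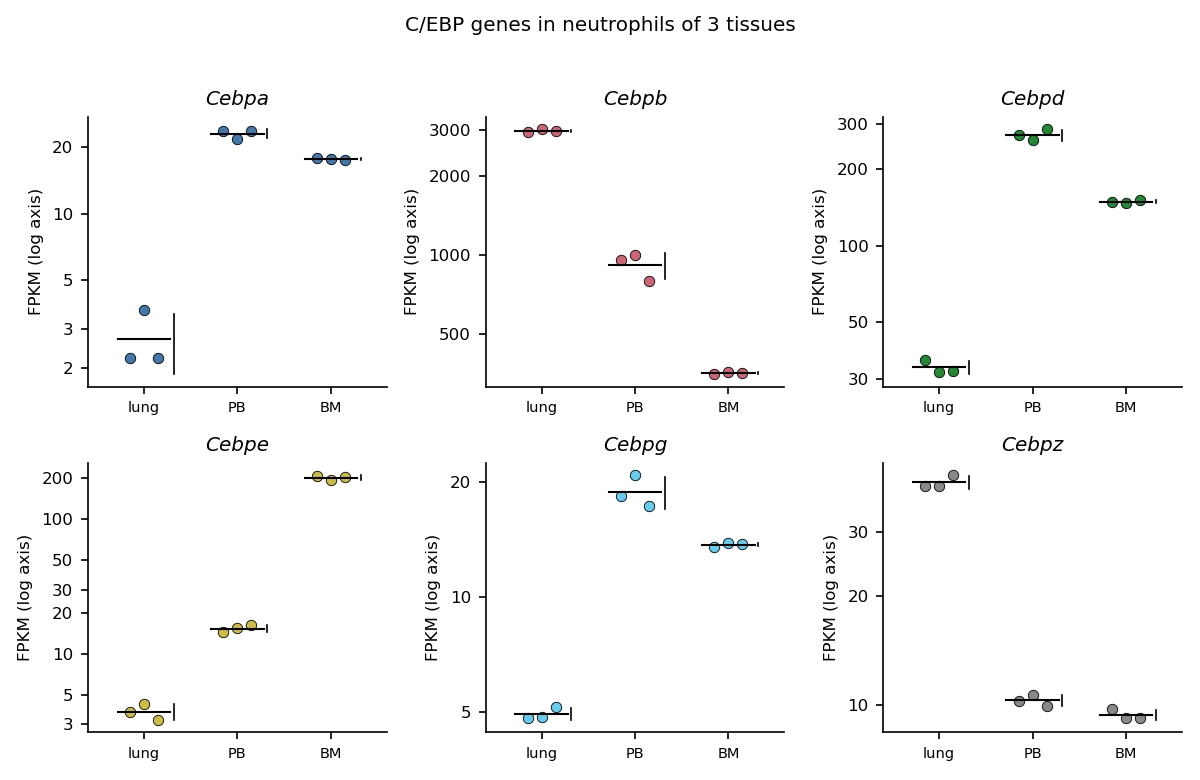
FPKM (log axis, own scale in each panel) of the 6 C/EBP genes in the 3 libraries each of lung, PB and BM neutrophils, with points for libraries, a horizontal line for the mean and a vertical line for ± 1 SD. *Cebpb* and *Cebpz* are highest in lung, *Cebpa*, *Cebpd* and *Cebpg* highest in PB, and *Cebpe* highest in BM at 194 to 209 FPKM.

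*Cebpb*, the family member of emergency granulopoiesis and inflammation, read 2936, 3006 and 2961 FPKM in the lung libraries. It read 956, 997 and 800 FPKM in PB and 352, 359 and 357 FPKM in BM. No range overlapped another, with lung highest and BM lowest. The mean was 2968 ± 35.6 FPKM (SD, n = 3) in lung, 918 ± 104 in PB and 356 ± 3.42 in BM. The difference was 1.70 between lung and PB (SE 0.09, adjusted p = 5.94e-07 by limma), 2.24 above the median gene, and 3.06 between lung and BM (SE 0.02, adjusted p = 2.59e-15), 3.76 above it. By mean FPKM *Cebpb* ranked 12th of all genes in lung, 51st in PB and 131st in BM neutrophils. *Tmem189*, on its opposite strand, was also highest in lung, and its part in the *Cebpb* reads was not tested.

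*Cebpd*, an acute phase partner of *Cebpb*, went the other way. It stood at 35.5, 31.9 and 32.3 FPKM in lung, 271, 260 and 286 FPKM in PB and 149, 148 and 151 FPKM in BM. PB was highest and lung lowest, without overlap. The mean of 33.3 ± 1.98 FPKM (SD, n = 3) in lung compared with 272 ± 13.3 in PB, an 8.19-fold higher level in PB, and with 149 ± 1.80 in BM. The lung-to-PB difference of −3.00 (SE 0.06, adjusted p = 7.17e-09 by limma) lay at percentile 0.158 of all genes tested. It was −2.46 relative to the median gene. The *Cebpb* to *Cebpd* ratio per length was 3.39 in PB, 2.39 in BM and 89.4 in lung neutrophils.

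*Cebpa*, the lineage factor of early granulopoiesis, was low in lung neutrophils. The lung libraries had 2.21, 3.65 and 2.23 FPKM, from 97 to 165 reads, the PB libraries 23.7, 21.8 and 23.6 FPKM, and the BM libraries 17.9, 17.7 and 17.6 FPKM. Replicate 2 was the highest of the lung libraries, yet all 3 stayed far below every PB and BM library. The means were 2.70 ± 0.823, 23.0 ± 1.08 and 17.7 ± 0.172 FPKM (SD, n = 3). The lung-to-PB difference was −2.72 (SE 0.14, adjusted p = 7.35e-07 by limma), or −2.18 relative to the median gene, and the lung-to-BM difference −2.36 (SE 0.13, adjusted p = 3.08e-08).

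*Cebpe*, the factor of granule maturation, set BM apart. It read 209, 194 and 205 FPKM in BM, 14.5, 15.5 and 16.2 FPKM in PB and 3.72, 4.24 and 3.23 FPKM in lung. BM was highest, PB intermediate and lung lowest, and no ranges met. The mean in BM of 203 ± 7.68 FPKM (SD, n = 3) was 13.2-fold the PB mean of 15.4 ± 0.873 and 54.4-fold the lung mean of 3.73 ± 0.503. The lung-to-BM difference of −5.44 (SE 0.07, adjusted p = 7.67e-13 by limma) was at percentile 0.0729 of all genes tested, and the lung-to-PB difference was −1.80 (SE 0.09, adjusted p = 6.89e-07). Beside this, 5 neutrophil precursor markers summed to 18.1 to 19.1 FPKM in BM, 1.85 to 2.74 in PB and 2.45 to 3.50 in lung. Of the 2 that could be tested between PB and BM, *Mki67* was below 1 FPKM in every PB library. The other was higher in PB by 0.36, so the higher sum in BM is not shared by the list. The part of precursor cells in the *Cebpe* level was not tested.

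*Cebpg*, the zipper protein without an activation domain, had the smallest difference of the 6 between lung and BM. Its levels were 4.84, 4.85 and 5.17 FPKM in lung, 18.4, 20.8 and 17.3 FPKM in PB and 13.6, 13.8 and 13.8 FPKM in BM. All lung libraries were below all others, and PB was above BM. The lung-to-PB difference was −1.73 (SE 0.08, adjusted p = 3.85e-07 by limma). Against BM it was −1.31 (adjusted p = 2.87e-09), but −0.60 relative to the median gene, and this call was lost with FPKM rescaled by the median ratio (−0.55) and with limma-voom on recovered reads (−0.62).

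*Cebpz*, the ribosome assembly factor, was the other member that rose in lung. It read 40.0, 40.0 and 42.8 FPKM in lung, 10.3, 10.7 and 9.99 FPKM in PB and 9.74, 9.25 and 9.21 FPKM in BM. The lung libraries stood well above the rest, and PB lay just above BM. The mean of 40.9 ± 1.62 FPKM (SD, n = 3) in lung was 3.97-fold the PB mean of 10.3 ± 0.347 and 4.35-fold the BM mean of 9.40 ± 0.296. The differences were 1.89 against PB (SE 0.06, adjusted p = 3.82e-08 by limma) and 2.01 against BM (adjusted p = 3.90e-11). *Cebpzos*, on the opposite strand, was at 1.57 FPKM in lung, 1.69 in PB and 2.44 in BM.

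Between PB and BM 2 of the 6 were called, against 22.0% of 8237 genes tested (7.85% higher, 14.1% lower). *Cebpb* rose by 1.36 (SE 0.09, adjusted p = 2.61e-06 by limma) and *Cebpe* fell by 3.64 (SE 0.06, adjusted p = 7.55e-09), while the median gene differed by −0.12. *Cebpd* (0.86, adjusted p = 2.32e-06), *Cebpg* (0.43, adjusted p = 0.000992) and *Cebpa* (0.36, adjusted p = 0.000523) were higher in PB without reaching a log2 difference of 1. At the adjusted p alone 5 members passed, where 73.1% of all genes did. *Cebpz* missed the threshold at 0.12 (95% confidence interval −0.02 to 0.26, adjusted p = 0.0985), and with FPKM rescaled by the median ratio it was 0.23 (adjusted p = 0.00667).

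The make-up of the family differed between tissues. FPKM is per length, so the 6 levels can be added. *Cebpb* made up 97.2% ± 0.058 (SD, n = 3) of the summed C/EBP FPKM in lung, 72.8% ± 3.08 in PB and 47.5% ± 0.763 in BM neutrophils. *Cebpd* supplied 21.8% in PB and 19.9% in BM but 1.09% in lung, and *Cebpe* supplied 27.1% ± 0.826 in BM, 1.23% in PB and 0.122% in lung. The sum itself was 3053 FPKM in lung, 1258 in PB and 749 in BM.

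**Figure D2:**
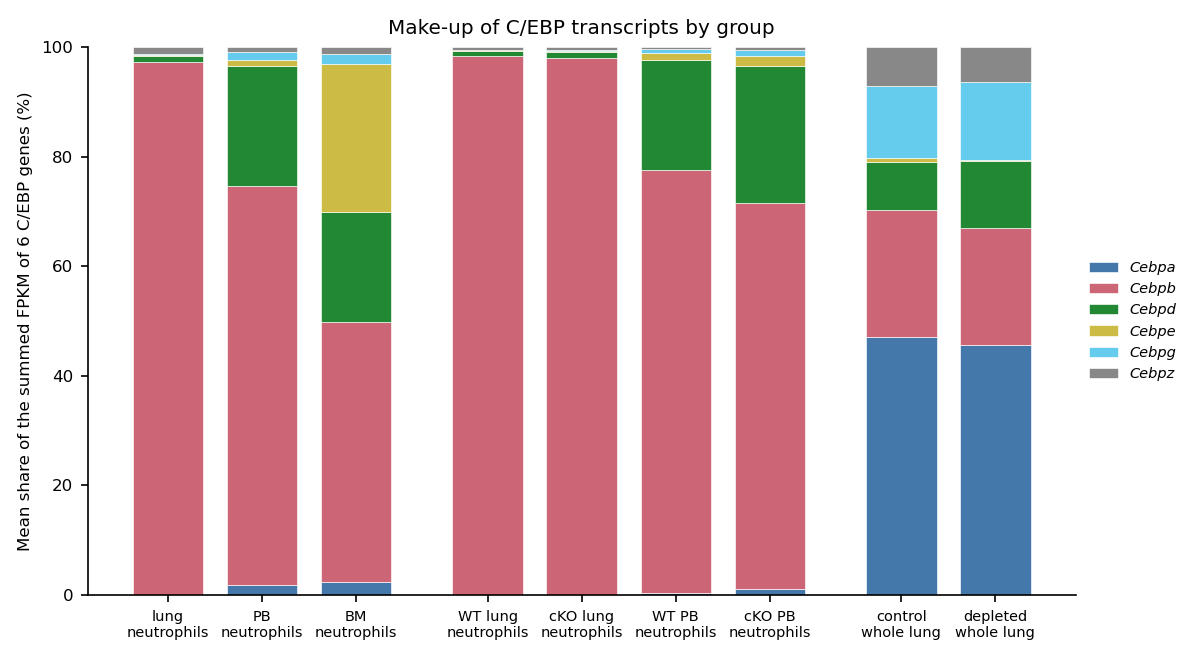
Mean percent of the summed FPKM of the 6 C/EBP genes that each gene supplied, stacked to 100 for each group. *Cebpb* takes 97.2% in lung, 72.8% in PB and 47.5% in BM neutrophils, and *Cebpa* takes 47.1% in control whole lung.

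In order of FPKM, lung neutrophils had *Cebpb*, *Cebpz*, *Cebpd*, *Cebpg*, *Cebpe* and *Cebpa*, and the ranges of the last pair overlapped. PB had *Cebpb*, *Cebpd*, *Cebpa*, *Cebpg*, *Cebpe* and *Cebpz*, and BM had *Cebpb*, *Cebpe*, *Cebpd*, *Cebpa*, *Cebpg* and *Cebpz*, where no neighbouring ranges overlapped. The *Cebpb* to *Cebpa* ratio was 20.1 ± 0.358 in BM, 40.0 ± 5.96 in PB and 1160 ± 290 in lung (SD, n = 3). The *Cebpb* to *Cebpe* ratio was 1.76 in BM, 59.8 in PB and 805 in lung.

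Genes linked to C/EBP factors were read next, from lists of known partners, regulators and targets. Of 6 granule genes linked to C/EBPε all fell in lung against BM, where 36.0% of all genes were called lower. The list median was −4.63 and the median of all genes −0.70. The largest differences were those of *Camp* (−6.28), the cathelicidin precursor, *Ltf* (−6.06), lactoferrin, *Ngp* (−5.73), neutrophilic granule protein, and *Mmp8* (−3.53), neutrophil collagenase. Between PB and BM 5 of the 6 fell (list median −4.30), against 14.1% of all genes, with *Camp* at −5.98 and *Ltf* at −5.88. Between lung and PB 1 of the 6 was called lower, against 19.5% of all genes. This was *Mmp9* (gelatinase B) at −1.04, or −0.51 relative to the median gene. With FPKM rescaled by the median ratio *Mmp9* was no longer called against PB (−0.40) or BM (−0.98), and without PB replicate 3 it was not called against PB (−0.98). *Cebpe* and these genes thus shared their high level in BM. The summed precursor markers were also highest there, but of the 2 tested between PB and BM only *Mki67* was higher in BM.

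Of 12 inflammatory and acute phase targets of C/EBPβ and C/EBPδ, 7 could be tested between lung and PB and all 7 rose. The list median was 3.41 against −0.54 for all genes, of which 7.75% were called higher. *Cd14*, an endotoxin co-receptor, differed by 4.60, *Ccl3*, a chemokine, by 4.05 and *Saa3*, an acute phase protein, by 3.41. *Csf3*, the gene of G-CSF, had 781 to 839 reads in the lung libraries and none in PB, which makes it at least 293-fold higher in lung at 3 reads per PB library. *Csf3* and *Saa3* were below 1 FPKM in every PB library, so they passed the filter on low values through lung alone and had to differ, and without them the median of the other 5 was 2.73. Against BM 7 of 8 tested rose, where 9.86% of all genes were called higher. *Cd14* was at 8.34, *Ccl3* at 7.69, *Ptgs2* (cyclooxygenase 2) at 6.79 and *Il1b* at 5.55, and *Orm1*, the acute phase orosomucoid, fell by 4.29. Between PB and BM 4 of 6 rose, against 7.85% of all genes, and *Orm1* fell by 4.72. Against BM the pair *Csf3* and *Saa3* again passed the filter through lung alone, and *Orm1* passed it between PB and BM through BM alone. *Cebpd*, which is lowest in lung, and *Cebpb*, which is highest there, are both linked to this list.

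**Figure D3:**
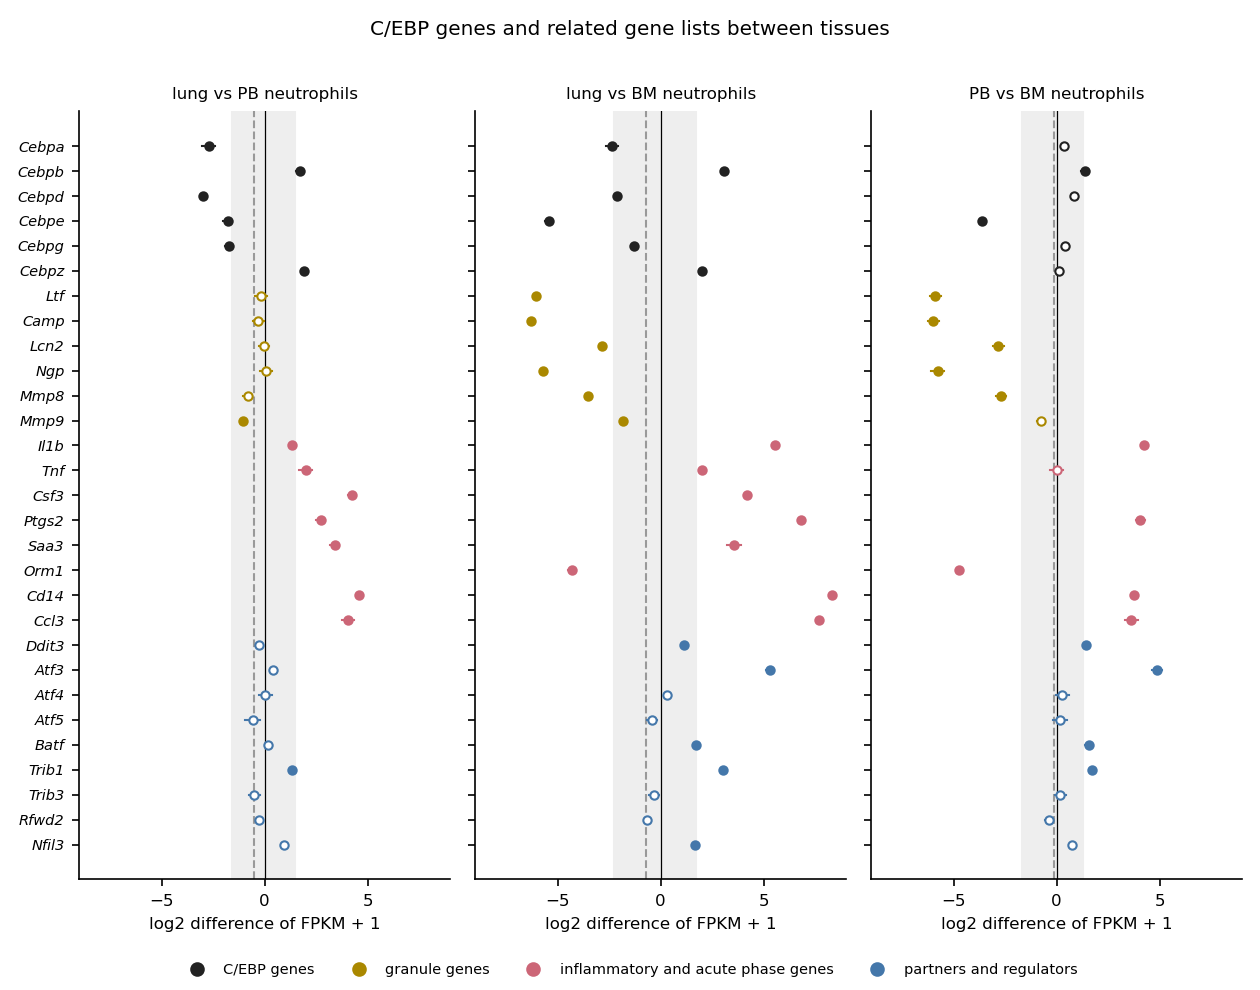
Log2 difference (95% confidence interval) of each C/EBP gene and each listed granule, inflammatory and partner gene, where filled points passed both thresholds, open points did not, the grey band spans the 5th to 95th percentile of all genes tested and the dashed line marks the median gene. *Cebpd* lies below the band at −3.00 between lung and PB, and *Cebpe* at −5.44 between lung and BM.

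Among 12 dimer partners and regulators 9 could be tested in the tissue experiment. *Trib1*, which targets C/EBPα protein for degradation, rose by 1.31 in lung against PB and by 3.03 against BM, with means of 329 FPKM in lung, 132 FPKM in PB and 39.4 FPKM in BM. No other partner was called between lung and PB on FPKM as deposited, where 7.75% of all genes were called higher. *Nfil3* differed by 0.93, or 1.47 relative to the median gene, and with FPKM rescaled by the median ratio *Nfil3* (1.56) and *Atf3* (1.06) were called as well. Against BM 5 rose, *Atf3* (5.31), *Trib1*, *Batf* (1.73), *Nfil3* (1.69) and *Ddit3* (1.15), all zipper proteins except *Trib1*, and none fell. Of all genes 9.86% were called higher there. Between PB and BM 4 rose, led by *Atf3* at 4.89, against 7.85% of all genes. Of 6 early granulocyte genes of C/EBPα 3 were tested between lung and PB, where 19.5% of all genes were called lower. Of these, *Il6ra*, an interleukin-6 receptor chain, fell by 1.26, or 0.72 below the median gene, a call lost with the rescaling (−0.62). Against BM 4 were tested, where 36.0% of all genes were called lower and 9.86% higher. *Gfi1*, a granulocyte repressor, fell by 1.98 and *Csf3r*, the G-CSF receptor, rose by 1.06. Between PB and BM 4 were tested, where 14.1% of all genes were called lower and 7.85% higher, and *Gfi1* fell by 2.22 and *Csf3r* rose by 1.70. *Gfi1* was below 1 FPKM in every lung and PB library and passed the filter through BM alone.

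The genes whose log2 level followed each member most closely over the 17 sorted libraries were named by the smallest root mean square deviation after centring, among 8693 genes. The libraries share tissue, depth and experiment, so this is a description. *Cebpb* was followed by *Zfp263* (0.19), *Osm* (0.19) and *Trib1* (0.21), and *Osm*, the cytokine oncostatin M, had means of 704, 209 and 80.8 FPKM in lung, PB and BM. *Cebpe* was followed less closely, by *Ccdc125* (0.42), *4930438A08Rik* (0.43) and *Cd177* (0.43), and *Cd177*, a neutrophil surface protein, had means of 51.6, 96.5 and 1591 FPKM. *Cebpa* had *Zfp212* (0.23), *Zdhhc7* (0.25) and *Cd151* (0.26), and *Cebpd* had *Relt* (0.21), *D1Ertd622e* (0.23) and *Topors* (0.24). *Cebpg* had *Cdc42se1* and *Tmpo* (each 0.12), and *Cebpz* had *Malt1* (0.09), *Elmsan1* (0.10) and *Samsn1* (0.10).

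The *Piezo1* experiment asked whether loss of this mechanosensitive channel changes neutrophils of lung and PB. In its WT mice the lung-to-PB directions were again *Cebpb* (1.75) and *Cebpz* (1.57) higher and *Cebpd* (−2.95), *Cebpa* (−1.83), *Cebpe* (−1.58) and *Cebpg* (−1.39) lower, all 6 called by limma where 34.0% of 7143 genes were (7.50% higher, 26.5% lower) and the median gene stood at −0.62. With FPKM rescaled by the median ratio 4 were called, 2 higher and 2 lower, since *Cebpe* was at −0.91 and *Cebpg* at −0.76, and the background was 13.2% higher and 8.86% lower. In *Piezo1*-cKO mice, where the tissues were not tested against each other, the lung mean was 3.51-fold the PB mean for *Cebpb* and 3.22-fold for *Cebpz*. There the PB mean was 7.27-fold the lung mean for *Cebpa*, 8.17-fold for *Cebpd*, 5.11-fold for *Cebpe* and 3.04-fold for *Cebpg*.

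**Figure D4:**
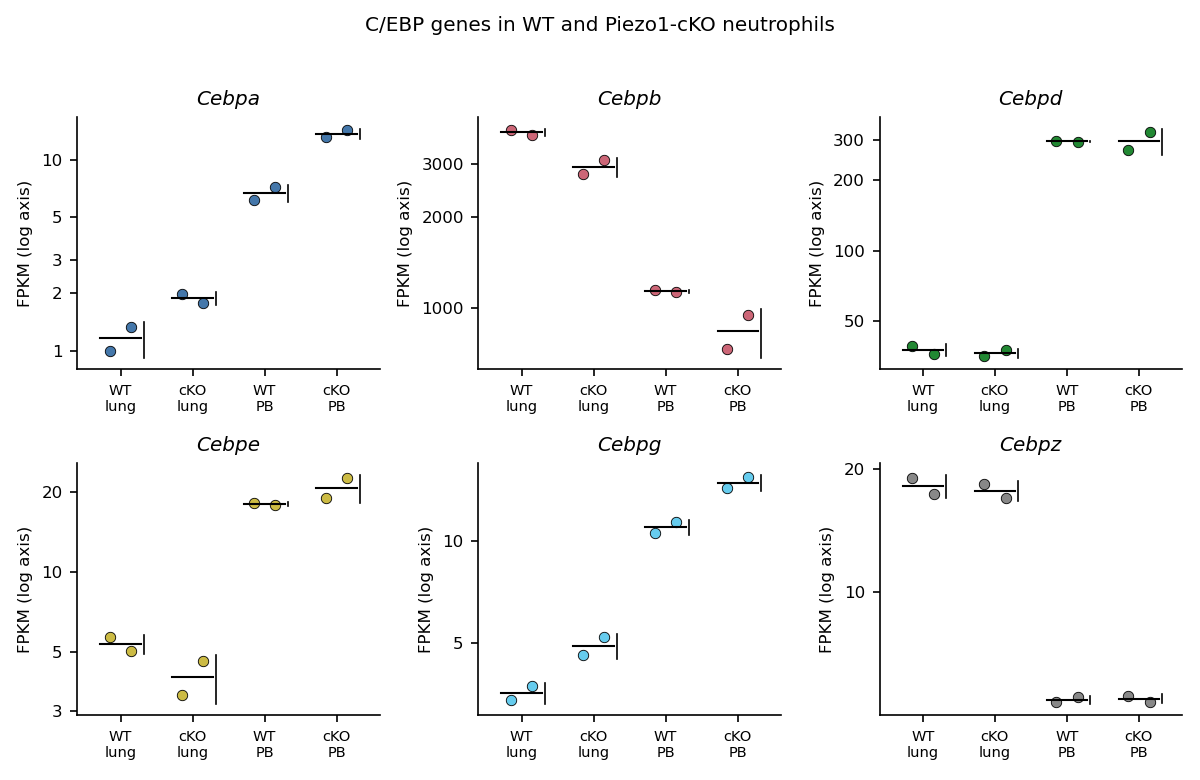
FPKM (log axis, own scale in each panel) of the 6 C/EBP genes in the 2 libraries each of WT and *Piezo1*-cKO lung and PB neutrophils, with points for libraries, a horizontal line for the mean and a vertical line for ± 1 SD. *Cebpa* and *Cebpg* are higher and *Cebpb* is lower in *Piezo1*-cKO than in WT in both tissues, and *Cebpd* and *Cebpz* overlap between genotypes. The share of all genes without overlap was not computed.

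Between *Piezo1*-cKO and WT lung neutrophils none of the 6 was called by limma, and 0.995% of 6434 genes were. Limma-voom on recovered reads also called none, 4 members had an unadjusted p below 0.05, as did 57.4% of all genes, and 3 passed at the adjusted p alone, where 50.7% of all genes did. These 3 were *Cebpa*, *Cebpb* and *Cebpg*. Beside these lung results, 7 monocyte or macrophage markers summed to 120 to 122 FPKM in WT and to 151 to 152 FPKM in *Piezo1*-cKO libraries, with *C1qa*, *Ccr2* and *Mrc1* at 0 in all of them. All 3 markers that could be tested were higher in *Piezo1*-cKO lung at an adjusted p below 0.05 by limma, *Csf1r* by 0.34, *Adgre1* by 0.20 and *Ear2*, which was below 1 FPKM in both WT libraries, by 1.56. *Marco* was at 0 in both *Piezo1*-cKO libraries but not in both WT libraries. The 6 neutrophil markers summed to 89547 to 92978 FPKM in WT and 68018 to 72397 FPKM in *Piezo1*-cKO lung. At the adjusted p alone 4 of these 6 were lower and 2 higher by limma. The part of either list in the C/EBP differences was not tested. The median gene differed by 0.09 in lung, 0.02 in PB and 0.08 in the interaction.

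*Cebpb* read 3908 and 3755 FPKM in WT lung and 2796 and 3098 FPKM in *Piezo1*-cKO lung. In PB it read 1146 and 1127 FPKM in WT and 730 and 949 FPKM in *Piezo1*-cKO neutrophils. Both *Piezo1*-cKO libraries were below both WT libraries in each tissue, and the share of all genes so separated was not computed. The ratio of means was 0.769 in lung (log2 difference −0.38, 95% confidence interval −0.50 to −0.26, adjusted p = 0.00236 by limma) and 0.739 in PB (−0.45, −0.74 to −0.16, adjusted p = 0.0233). The lung difference kept an adjusted p below 0.05 without any 1 library, from −0.45 to −0.31. The PB difference rose to an adjusted p of 0.207 without WT replicate 1 and of 0.182 without WT replicate 2, and to 0.153 with limma-voom, and *Piezo1*-cKO PB replicate 1, the lowest, was also the shallowest library with 9621120 reads.

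*Cebpa* was at 0.993 and 1.34 FPKM in WT lung and at 1.98 and 1.78 FPKM in *Piezo1*-cKO lung, from 39 to 77 reads a library. In PB it was at 6.19 and 7.18 FPKM in WT and at 13.1 and 14.3 FPKM in *Piezo1*-cKO neutrophils. The *Piezo1*-cKO libraries were higher in both tissues, without overlap, and the share of all genes without overlap was not computed. The ratio of means was 2.05 in PB, with a log2 difference of 0.94 (95% confidence interval 0.72 to 1.15, adjusted p = 0.000515 by limma) that fell just short of 1 and passed it with a pseudocount of 0.1 (1.03), with limma-voom (1.02) and without WT PB replicate 2 (1.03). In lung the ratio was 1.62, with a difference of 0.42 (0.16 to 0.68, adjusted p = 0.0179) whose adjusted p rose to 0.0906 without WT replicate 1 and to 0.0995 without *Piezo1*-cKO replicate 1.

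*Cebpg* followed *Cebpa* in direction. It read 3.38 and 3.73 FPKM in WT lung against 4.59 and 5.19 FPKM in *Piezo1*-cKO lung, and 10.6 and 11.4 FPKM in WT PB against 14.3 and 15.5 FPKM in *Piezo1*-cKO PB. The genotypes did not overlap in either tissue, and the share of all genes without overlap was not computed. The differences were 0.37 in lung (95% confidence interval 0.15 to 0.59, adjusted p = 0.0159 by limma) and 0.41 in PB (0.23 to 0.59, adjusted p = 0.00491). In lung the adjusted p was 0.0663 without WT replicate 1 and 0.0969 without *Piezo1*-cKO replicate 2.

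*Cebpe*, from 63 to 105 reads a library in lung, had differences of opposite sign in the tissues, and neither passed at the adjusted p. It read 5.69 and 5.05 FPKM in WT lung and 3.46 and 4.64 FPKM in *Piezo1*-cKO lung, and 18.2 and 17.8 FPKM in WT PB and 18.9 and 22.5 FPKM in *Piezo1*-cKO PB. The *Piezo1*-cKO libraries lay below WT in lung and above it in PB, and in PB the nearest pair was close. How many of all genes were separated in this way was not computed. The lung difference was −0.34 (95% confidence interval −0.64 to −0.05, adjusted p = 0.0552 by limma) and the PB difference 0.19 (−0.02 to 0.39, adjusted p = 0.119). Single libraries moved both. The lung value was −0.17 (adjusted p = 0.282) without *Piezo1*-cKO replicate 1 and −0.51 (adjusted p = 0.0186) without *Piezo1*-cKO replicate 2. The PB value was 0.30 (adjusted p = 0.00452) without *Piezo1*-cKO replicate 1 and 0.066 (adjusted p = 0.491) without *Piezo1*-cKO replicate 2. The 5 neutrophil precursor markers summed to 2.55 to 2.77 FPKM in WT and 0.387 to 1.28 FPKM in *Piezo1*-cKO lung, and their part was not tested.

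*Cebpd* read 39.0 and 36.0 FPKM in WT and 35.1 and 37.4 FPKM in *Piezo1*-cKO lung, and in PB 296 and 294 FPKM for WT and 270 and 323 FPKM for *Piezo1*-cKO libraries. *Cebpz* read 19.0 and 17.3 FPKM in WT and 18.4 and 16.97 FPKM in *Piezo1*-cKO lung, and in PB 5.38 and 5.54 FPKM for WT and 5.58 and 5.39 FPKM for *Piezo1*-cKO libraries. Genotypes overlapped for both genes in both tissues. The intervals of the differences were −0.18 to 0.08 in lung and −0.19 to 0.19 in PB for *Cebpd*, and −0.20 to 0.12 and −0.19 to 0.20 for *Cebpz*.

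In PB none of the 6 was called by limma, against 3.65% of 7256 genes, 3 had an unadjusted p below 0.05, as did 56.9% of all genes, and 3 passed at the adjusted p alone, where 49.7% of all genes did. Limma-voom called 1, *Cebpa*. Beside these PB results, the erythroid markers *Hbb-bt*, *Hba-a1* and *Alas2* summed to 11.0 to 11.7 FPKM in WT and to 564 to 572 FPKM in *Piezo1*-cKO libraries, and their part in the C/EBP differences was not tested. In lung *Cebpb* made up 98.3% of the summed C/EBP FPKM for WT libraries and 97.8% for *Piezo1*-cKO libraries, and in PB 77.2% ± 0.178 and 70.4% ± 1.38 (SD, n = 2). The *Cebpb* to *Cebpa* ratio for lung was 3371 ± 797 in WT and 1574 ± 233 in *Piezo1*-cKO mice, and for PB 171 ± 19.9 and 61.1 ± 7.59.

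The genotype effect in lung less that in PB was tested as an interaction. None of the 6 was called, against 6.85% of 7560 genes, and limma-voom also called none. At the adjusted p alone 2 passed (48.2% of all genes), the same 2 with an unadjusted p below 0.05 (56.1% of all genes), *Cebpa* (−0.52, 95% confidence interval −0.87 to −0.18, adjusted p = 0.0210 by limma) and *Cebpe* (−0.53, −0.92 to −0.14, adjusted p = 0.0322). The *Cebpa* value was −0.37 with a pseudocount of 0.1 (adjusted p = 0.183) and −0.45 with limma-voom (adjusted p = 0.156). *Cebpe* reached −0.75 with limma-voom (adjusted p = 0.00656) and had an adjusted p of 0.0807 with no filter on low values. *Cebpb* (0.07), *Cebpd* (−0.05), *Cebpg* (−0.04) and *Cebpz* (−0.04) did not pass, although *Cebpb* reached 0.26 (adjusted p = 0.0168) without *Piezo1*-cKO PB replicate 2.

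Of the linked lists, the granule genes had no call in either tissue of the *Piezo1* comparison, with 4 of 6 at an unadjusted p below 0.05 in each, a threshold that 57.4% of all genes passed in lung and 56.9% in PB. At the adjusted p alone 4 of 6 passed in each tissue, as did 50.7% of all genes in lung and 49.7% in PB. Among them *Camp*, *Ngp* and *Ltf* were higher in *Piezo1*-cKO neutrophils, by 0.56, 0.34 and 0.43 in lung and by 0.72, 0.70 and 0.63 in PB. *Lcn2*, lipocalin 2, was lower in lung at −0.31. Among the inflammatory targets none of 9 tested was called in lung, with 7 at an unadjusted p below 0.05, while in PB *Ptgs2* fell by 1.37, from 71.1 and 72.7 FPKM in WT to 25.1 and 29.4 FPKM. *Orm1* read 0.487 and 1.45 FPKM in WT and 2.67 and 3.44 FPKM in *Piezo1*-cKO PB, from 5 to 38 reads, and passed the filter on low values through the *Piezo1*-cKO group. Its difference of 1.08 was called, but not without WT replicate 1 (0.72), *Piezo1*-cKO replicate 1 (1.22, adjusted p = 0.0824 by limma) or *Piezo1*-cKO replicate 2 (0.94). *Ptgs2* (1.60, adjusted p = 1.39e-05 by limma) was also called in the interaction, without any 1 library as well. *Orm1* was called there too (−1.14, adjusted p = 0.0207) and was not with no filter on low values (adjusted p = 0.0626) or in 4 of the 8 fits that left out 1 library. None of the dimer partners was called, with 4 of 8 in lung and 4 of 9 in PB at an unadjusted p below 0.05, and *Trib1* differed by 0.17 in lung and −0.48 in PB. *Batf3*, another zipper partner, was at 0.999 in PB. It was called with a pseudocount of 0.1 (1.78) and with limma-voom (1.92), and was 1.17 without WT PB replicate 1. *Batf3* read 0.374 and 0.746 FPKM in WT PB, passed the filter through the *Piezo1*-cKO group alone and so had to be higher there. Of the early granulocyte genes none of 3 was called in either tissue, with 3 in lung and 2 in PB at an unadjusted p below 0.05, and *Il6ra* differed by 0.84 in lung and 0.50 in PB. *Prtn3*, proteinase 3, was at −0.87 in lung. It was called with a pseudocount of 0.1 (−1.92) and with limma-voom (−2.24), and was −1.09 without *Piezo1*-cKO replicate 1. *Prtn3* was below 1 FPKM in both *Piezo1*-cKO lung libraries, passed the filter through WT alone and so had to be lower.

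The depletion experiment asked what changes in whole lung when neutrophils are removed. The order of the family was another one there, with *Cebpa*, *Cebpb*, *Cebpg*, *Cebpd*, *Cebpz* and *Cebpe* from high to low in controls, where *Cebpd* and *Cebpz* overlapped. *Cebpa* made up 47.1% ± 3.35 (SD, n = 3) of the summed C/EBP FPKM in control lungs and *Cebpb* 23.1% ± 4.23. Of 5 members tested none was called at an adjusted p below 0.05 and a log2 difference beyond 0.5 by limma, 2 had an unadjusted p below 0.05, as did 11.2% of all genes, and 1 of 13990 genes was called, or 0.00715%.

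**Figure D5:**
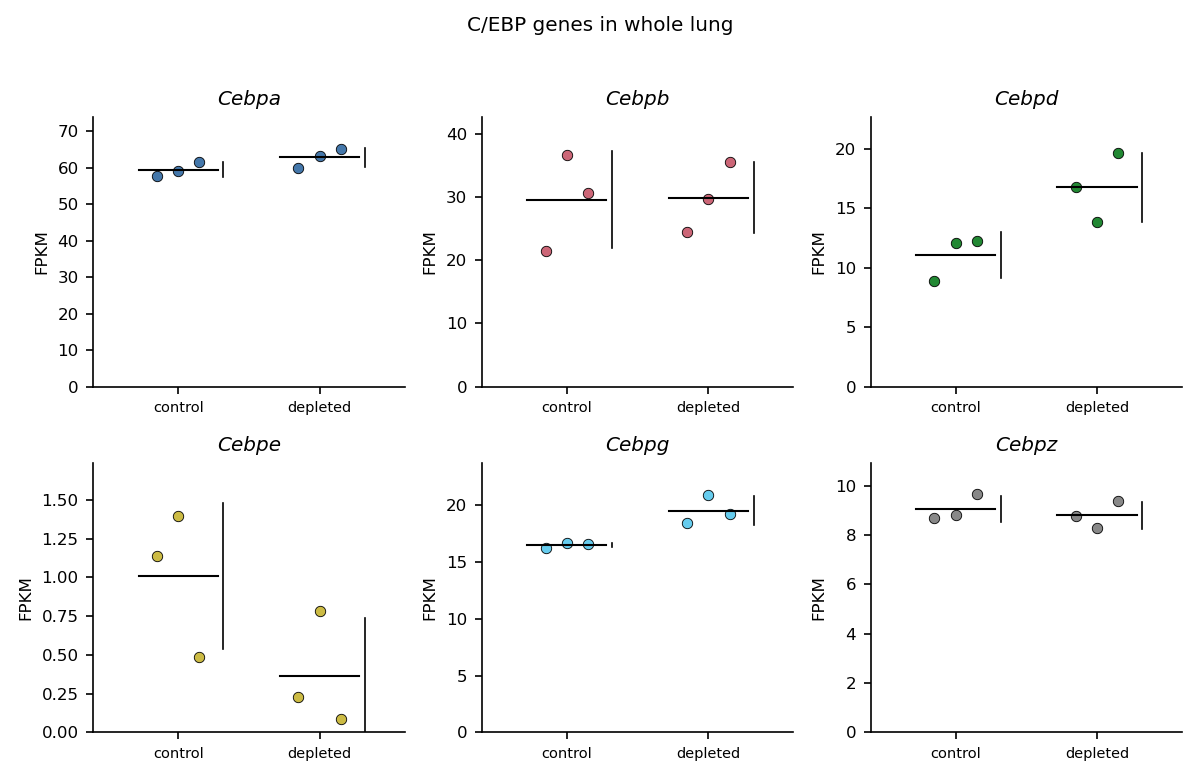
FPKM (linear axis from 0, own scale in each panel) of the 6 C/EBP genes in the 3 control and 3 neutrophil-depleted whole lungs, with points for libraries, a horizontal line for the mean and a vertical line for ± 1 SD. *Cebpd* and *Cebpg* do not overlap between groups, and the other 4 genes do. The share of all genes without overlap was not computed.

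*Cebpd* read 8.84, 12.1 and 12.3 FPKM in control lungs and 16.8, 13.8 and 19.7 FPKM in depleted lungs. Every depleted lung was above every control. The ratio of means was 1.52 and the difference 0.56 (95% confidence interval 0.18 to 0.94), with an unadjusted p of 0.00988 and an adjusted p of 0.275 by limma. *Cebpg* read 16.3, 16.7 and 16.6 FPKM in controls and 18.5, 21.0 and 19.2 FPKM in depleted lungs, again without overlap, with a difference of 0.23 (0.06 to 0.40, adjusted p = 0.303). Neither passed the correction over all genes, and the share of all genes without overlap was not computed. Beside them, 3 B cell markers summed to 48.8 to 52.4 FPKM in control and 18.2 to 42.1 FPKM in depleted lungs, each with an unadjusted p below 0.05 by limma and none called, and 3 T cell markers to 14.2 to 16.7 and 9.95 to 14.6 FPKM. Their part in the C/EBP levels was not tested.

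*Cebpa*, which in lung tissue is known for its part in alveolar epithelium, read 57.7, 59.2 and 61.6 FPKM in controls and 59.9, 63.4 and 65.3 FPKM in depleted lungs. *Cebpb* read 21.4, 36.7 and 30.6 FPKM in controls and 24.4, 29.8 and 35.5 FPKM after depletion. The groups overlapped for both. The interval of the difference was −0.46 to 0.53 for *Cebpb*, and *Cebpa* differed by 0.08 (adjusted p = 0.719 by limma). *Cebpz* was at 8.69, 8.82 and 9.68 FPKM in controls and 8.79, 8.28 and 9.37 FPKM in depleted lungs, also overlapping. *Cebpe*, at 1.14, 1.40 and 0.485 FPKM in controls and 0.227, 0.786 and 0.0881 FPKM in depleted lungs, did not pass the filter on low values and was not tested, and its ranges overlapped.

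The epithelial marker list summed to 64519 to 99718 FPKM in control and 85700 to 92143 FPKM in depleted lungs. None of 8 C/EBP targets of lung epithelium, such as the surfactant protein genes, and none of 7 tested adipocyte targets of C/EBPα was called by limma after depletion, and none had an unadjusted p below 0.05. In the other lists none was called either, with an unadjusted p below 0.05 in 2 of 5 granule genes, 2 of 2 early granulocyte genes, 1 of 4 inflammatory targets and 2 of 10 partners, where 11.2% of all genes had one. The lowest adjusted p values among them were those of *Il1b* (−1.79) and *Mmp9* (−1.63), both 0.0762. *Mmp9* was called with the replicate block (adjusted p = 0.0268 by limma), and *Csf3r*, at −1.68, was without depleted replicate 1 (−1.99, adjusted p = 0.0211). These and the unequal neutrophil marker sums went with the depletion, and the part of fewer neutrophils in the C/EBP levels was not tested.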

How the data were processed

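Sorted neutrophils (17 libraries) and whole lungs (6 libraries) were profiled by RNA-Seq. Per the labels, reads were trimmed with fastp, aligned to mm10 with HISAT2 and counted with HTSeq, without stated versions. The deposited values were FPKM for each library, in separately normalized tables, so tests stay within an experiment. Dividing out what 1 read is worth gave whole reads (within 0.02) for 100% of genes in the sorted libraries, from 9621120 to 19330774 reads a library. The deposited base means are a normalized signal the authors averaged by group from read counts divided by size factors. They set a common factor for the reads of 690 genes and then served to check the reads. For those genes the check was not independent. Columns of the authors' own comparisons, with fold changes and p-values, were not used. The labels name a SMARTER library kit and the study's methods another.

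Values were tested with limma 3.58.1 (R 4.3.3; trend and robust moderation) on log2(FPKM + 1), over genes with at least 1 FPKM in 3 libraries (2 in the *Piezo1* experiment), adjusted by Benjamini-Hochberg over all genes tested, with only the compared groups in a fit. A call needed an adjusted p below 0.05 and a log2 difference beyond 1 (0.5 in whole lung), which understates changes of low genes. Alternatives were a pseudocount of 0.1, no filter, median ratio rescaling, a replicate block, one fit for all libraries, limma-voom on recovered reads and leaving out each library. Scripts were tested on simulated data, and figures and descriptions used Python 3.11.15. The members and lists were chosen with earlier results of these data known. Overlap of libraries between groups is given for the members, and its share over all genes was not computed in any comparison. Up to 4 called genes with the largest differences were named in a list and comparison, with the 3 most similar genes for each member (1 is not reported here), and other genes named were picked after their values were seen.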

Additional observations from a re-analysis of the deposited data

Results flagged for a closer look

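2 values drew attention because the difference between *Piezo1*-cKO and WT was not the same in lung and in PB neutrophils by a limma interaction term. Both passed at the adjusted p alone, as did 48.2% of 7560 genes, and neither was called. For *Cebpa* the difference in lung less that in PB was −0.52 on the log2 scale (adjusted p = 0.0210 by limma), with 0.42 in lung and 0.94 in PB, and both *Piezo1*-cKO libraries above both WT libraries in each tissue. For *Cebpe* it was −0.53 (adjusted p = 0.0322 by limma), with −0.34 in lung and 0.19 in PB, and the 2 *Piezo1*-cKO libraries below WT in lung and above it in PB. These separations come from the same libraries as the interaction and add no support to it. The share of all genes so separated was not computed. Leaving out 1 library at a time, *Cebpa* kept an adjusted p below 0.05 in 4 of 8 fits (0.0130 to 0.0795) and *Cebpe* in 3 of 8 (0.00896 to 0.0944). The adjusted p of *Cebpa* was 0.183 with a pseudocount of 0.1 and 0.156 with limma-voom, and that of *Cebpe* 0.0807 with no filter on low values.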

How the results depend on the processing

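The 6 calls between lung and PB and the 2 between PB and BM kept their number under every alternative run except the adjusted p alone, which gave 5 between PB and BM. Between *Piezo1*-cKO and WT the adjusted p alone gave 3 in lung, 3 in PB and 2 in the interaction, against 0 in each, and in PB a pseudocount of 0.1 and limma-voom gave 1 each and leaving out 1 library 0 to 1. Without *Cebpz* the *Cebpb* share was 98.5% for lung in the tissue experiment and, in the other, 98.8% for WT lung, 77.5% for WT PB and 98.4% for *Piezo1*-cKO lung. Signs turned for values near 0 (log2): in *Piezo1*-cKO against WT PB *Cebpz* was −0.013 with median ratio rescaling and −0.020 with limma-voom, in the interaction *Cebpg* was 0.012 with a pseudocount of 0.1 and *Cebpb* −0.043 with rescaling and −0.062 with limma-voom, and in whole lung *Cebpz* was 0.0044 with rescaling. Leaving out 1 library gave −0.10 to 0.010 for *Cebpd* and −0.099 to 0.028 for *Cebpz* in lung, −0.13 to 0.13 and −0.016 to 0.028 in PB, −0.12 to 0.26 (*Cebpb*), −0.18 to 0.083 (*Cebpd*), −0.11 to 0.036 (*Cebpg*) and −0.11 to 0.021 (*Cebpz*) in the interaction, and −0.18 to 0.20 (*Cebpb*) and −0.077 to 0.0069 (*Cebpz*) after depletion. The cause was not tested. Where leaving out 1 library left a group with a single one, that library was assumed to vary like the other groups. Of the single gene values under alternatives 524 kept direction and side of the thresholds, 14 passed them newly, 6 no longer passed and 27 turned sign. Libraries with the same replicate number did not resemble each other after centring on their groups (correlations of −0.09 to 0.06). With 2 or 3 libraries a group this cannot exclude that they came from the same mouse. The replicate block left all 6 calls between lung and PB and changed no other member's call. The edgeR and DESeq2 alternatives were not run because the deposited columns hold FPKM. Depth limits *Cebpa* (39 to 165 reads a library) and *Cebpe* (63 to 105) in lung.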

Other observations

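WT neutrophils were sequenced in both sorted experiments, whose tables were normalized separately, so their levels are set side by side without a test. *Cebpa* in WT PB read 21.8 to 23.7 FPKM in the tissue experiment and 6.19 to 7.18 FPKM in the *Piezo1* experiment. *Cebpz* in WT lung read 40.0 to 42.8 FPKM and 17.3 to 19.0 FPKM, and *Cebpg* in WT PB 17.3 to 20.8 FPKM and 10.6 to 11.4 FPKM. *Cebpd* in WT PB was at 260 to 286 FPKM in the one and 294 to 296 FPKM in the other. *Piezo1*-cKO PB neutrophils, at 13.1 and 14.3 FPKM of *Cebpa*, lay between the WT PB libraries of the 2 experiments.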
